A study of Rattus norvegicus with 12 samples.

Results

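The left ventricles of 6 rats treated for heart failure, 3 by treadmill exercise and 3 by β-aminoisobutyric acid (BAIBA), were compared with those of 3 untreated rats with heart failure. These 9 rats were chosen by the group that their labels name, out of 12 in the series, and 3 sham-operated rats are given for reference only. The question was which transcripts the interventions moved in the same direction.

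All 9 rats were male Sprague-Dawley rats whose left anterior descending coronary artery was ligated at 8 weeks of age, and they were assigned to groups by echocardiography 4 weeks after surgery. HF rats stayed sedentary, HFE rats exercised on a treadmill in sessions of 60 min, with 5 sessions weekly over 8 weeks, at 50 to 60% of their maximum, and BAIBA rats received 75 mg/kg/day of BAIBA by gavage for 8 weeks. Water by gavage is described for the controls of the BAIBA study only, so whether the sequenced HF and HFE rats were gavaged was not stated. One supplement of the study states that Sham and HF rats were given BAIBA, whereas the labels give HF rats as sedentary and BAIBA to its own group, and the labels were followed. Sham rats had the operation without the ligation and stayed sedentary. Hearts were taken 12 weeks after surgery, from the anterior wall of the left ventricle. The study's methods name the region around the infarct for BAIBA rats alone and its results name it for HF rats as well, so whether HF and BAIBA tissue came from the same region is not settled by these sources. The methods describe an exercise study and a BAIBA study, each with its own HF rats, and which of them gave the 3 sequenced HF rats was not stated. Both interventions therefore have only these 3 HF rats as controls, and their 2 differences from HF share every error in the HF values.

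BAIBA is a small amino acid released by contracting skeletal muscle during the breakdown of valine and thymine, and it has been studied as a circulating signal of exercise. An infarcted heart lays down scar, returns in part to a fetal pattern of gene expression with more β-myosin heavy chain, and draws less of its energy from fatty acids. Cells that make and secrete much protein rely on chaperones of the endoplasmic reticulum (ER), whose genes are switched on by the unfolded protein response.

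The libraries of the 9 rats held between 14812541 and 19732588 counted reads. The summed level of 7 cardiomyocyte markers lay between 35037 and 42959 CPM, read counts scaled to the size of the library, in the 9 rats, so the labels' tissue, heart, held. These markers were not used to check the region of the heart. The Pearson correlation of log2 expression between HF and treated rats ranged from 0.950 to 0.971 over 18 pairs, and between rats of the same group from 0.946 to 0.969 over 9 pairs. HF rat 1 stood apart from the other HF rats. Its summed level of 4 T cell markers was 105.9 CPM, against 3.12 to 4.66 CPM in the other HF rats and 4.43 to 11.3 CPM in the 6 treated rats. Atrial markers lay between 107.0 and 567.6 CPM in HF rats and between 53.8 and 246.6 CPM in treated rats, and mesothelial markers reached 91.9 CPM in BAIBA rat 1 against 19.1 to 43.7 CPM in the other treated rats and 21.6 to 28.0 CPM in HF rats. Their part in any result was not tested. In tissue samples such as these, fewer cells of a type and less RNA in each cell cannot be told apart.

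Across 15418 genes tested, the mean of the interventions differed from HF in 1 gene, which was lower, and in no gene that was higher. Calls rested on edgeR's quasi-likelihood test with Benjamini-Hochberg adjustment, at an adjusted value below 0.05 together with a change of more than 1 on the log2 scale in either direction, and 0.00649% of all tested genes passed these limits. The gene was Ncbp2 (ENSRNOG00000001746), which encodes the small subunit of the nuclear complex that binds the cap of new transcripts. The next lowest adjusted p was 0.107, for LOC100911994, and the third was 0.765. DESeq2 called 0 genes in either direction, but it gave no adjusted p to 14350 of the 15418 genes. Ncbp2 was among them, since the filter of DESeq2 on low counts set the gene aside. Of the rest, Myh7, Col6a2 and Anp32e had a DESeq2 adjusted p under 0.05 with a change smaller than 1 on the log2 scale. For exercise alone the lowest adjusted p of edgeR's quasi-likelihood test was 0.127 and for BAIBA alone it was 0.0874, so 0 genes were called for either, while 1073 genes (6.96% of those tested) had an unadjusted p under 0.05 against HF for exercise and 1085 (7.04%) for BAIBA. DESeq2 called 15 genes for exercise and 27 for BAIBA.

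Ncbp2 was at 6.13, 5.40 and 5.56 CPM in the HF rats. It was at 0.732, 0.485 and 0.317 CPM in the HFE rats and at 0.390, 0.257 and 0.724 CPM in the BAIBA rats. Every treated rat lay far below every HF rat, at 4 to 12 reads against 88 to 107. The mean of the interventions was 11.6-fold lower than HF, with a log2 fold change of -3.54 (SE 0.31, adjusted p = 0.0113 in edgeR's quasi-likelihood test). The log2 fold change was -3.46 for exercise (SE 0.40) and -3.61 for BAIBA (SE 0.41), and neither passed adjustment on its own. Sham rats were at 4.44, 0.713 and 0.328 CPM, so a single Sham rat was near the HF level and the other Sham rats were near the treated level. Ncbp1, the large subunit of the same complex, was between 27.4 and 30.8 CPM in the 9 rats. Its log2 fold change was -0.05 (SE 0.08). Ncbp3, which can take the place of the small subunit, was at a log2 fold change of -0.09 (SE 0.14). A second Ensembl gene with the symbol Ncbp2 had no reads in any rat, and how the counting treated reads that match both was not stated. The Ncbp2 call was lost without HF rat 3 (adjusted p = 0.0514) and without BAIBA rat 1 (adjusted p = 0.0574), with a replicate block (adjusted p = 0.0621), and with the Sham rats in the edgeR quasi-likelihood fit (adjusted p = 0.555).

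LOC100911994, described in the deposited table as like CCDC132, an older name of the endosome-tethering subunit now called Vps50, is named here after its values were seen. It was at 0.229, 0.184 and 0.159 CPM in HF rats. It was at 3.20, 1.94 and 3.61 CPM in HFE rats and at 3.63, 1.28 and 2.71 CPM in BAIBA rats. All treated rats were above all HF rats, while Sham rats were at 0.115, 0 and 0.197 CPM, at the HF level. The log2 fold change was 3.79 (SE 0.47, adjusted p = 0.107 in edgeR's quasi-likelihood test), and the HF values rest on 3 or 4 reads per rat. Vps50 itself was between 6.25 and 10.9 CPM in the 9 rats with a log2 fold change of -0.04 (SE 0.20), and how reads were shared between such similar genes was not stated.

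**Figure D1:**
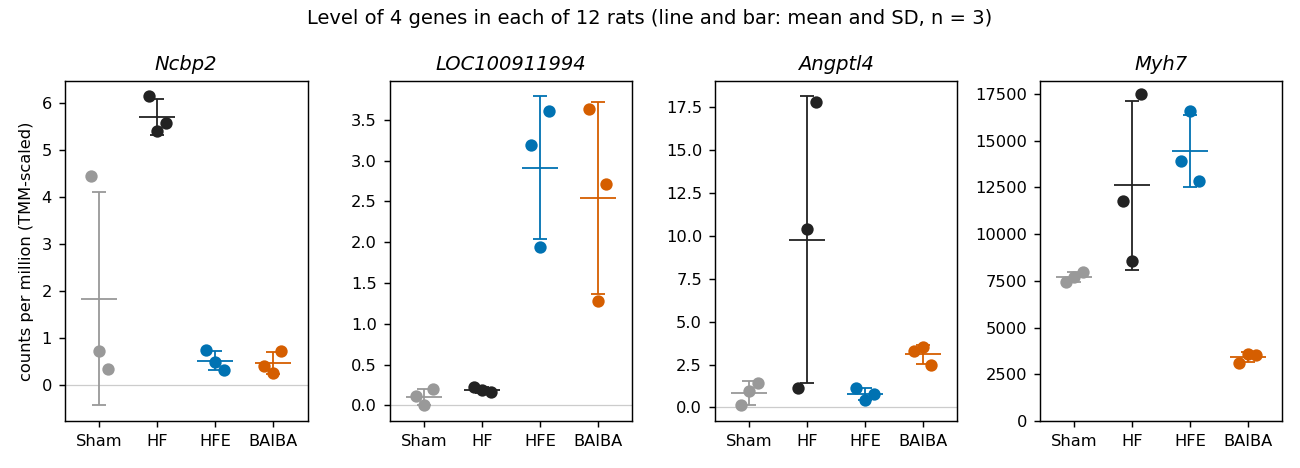
Level of Ncbp2, LOC100911994, Angptl4 and Myh7 in CPM (vertical axes, linear) in each of the 12 rats by group (horizontal axes). Points are rats, the line and bar are the mean and SD of 3 rats, and the 6 treated rats lie below the HF rats for Ncbp2 and above them for LOC100911994, while HF rat 1 lies apart from the other HF rats for Angptl4 and the interventions lie apart from each other for Myh7.

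Genes moved by each intervention in the same direction were then sought. Requiring an unadjusted p under 0.05 for each intervention left 109 genes higher in both (0.707% of those tested) and 93 lower in both (0.603%). After adjustment of the larger of the 2 p-values in edgeR's quasi-likelihood test, 0 genes remained in either direction, and the lowest adjusted value was 0.127. DESeq2, run as an alternative, passed 1 gene in each direction by this rule, LOC100911994 higher and Ncbp2 lower. For the mean of the interventions, 468 genes (3.04%) had an unadjusted p under 0.05 and were higher, and 515 (3.34%) were lower. In 265 genes (1.72%) all 6 treated rats were above all 3 HF rats in CPM, and in 203 (1.32%) all were below.

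From the genes without overlap between treated and HF rats, the 12 higher and the 12 lower genes with the lowest p were taken for description. Because their values chose them, no test is given, and apart from Ncbp2 each had an adjusted p of 0.765 in edgeR's quasi-likelihood test. Among the higher genes, 3 act in protein folding and traffic or in the matrix. Xbp1, the transcription factor that is activated by splicing in the unfolded protein response, was at 32.9, 31.9 and 35.0 CPM in HF rats. It was at 38.7, 36.8 and 39.4 CPM in HFE rats and at 42.9, 42.2 and 43.4 CPM in BAIBA rats, a narrow spread within each group. Kdelr3, a receptor that returns escaped chaperones from the Golgi to the ER, was at 8.20, 8.40 and 7.57 CPM in HF rats. It was at 13.4, 11.4 and 12.5 CPM in HFE rats and at 13.5, 10.3 and 9.83 CPM in BAIBA rats. Col6a2, a chain of collagen VI, was at 128, 121 and 126 CPM in HF rats, 154, 143 and 137 CPM in HFE rats, and 158, 156 and 165 CPM in BAIBA rats. The log2 fold changes of these 3 genes for both interventions together were 0.29 (SE 0.07), 0.55 (SE 0.14) and 0.29 (SE 0.07), in that order.

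Of the other higher genes, several encode enzymes. Hpd, which breaks down a product of tyrosine, was at 16.1 to 19.8 CPM in HF rats. HFE rats were at 22.0, 23.5 and 30.5 CPM and BAIBA rats at 26.0, 44.4 and 39.7 CPM, so the BAIBA rats reached further. Kyat3, a kynurenine aminotransferase, was at 19.8, 25.6 and 19.1 CPM in HF rats and at 27.8 to 31.9 CPM in treated rats. Alpl, the tissue-nonspecific alkaline phosphatase, was at 16.9, 26.0 and 22.3 CPM in HF rats and at 28.2 to 36.8 CPM in treated rats. Etnppl, which degrades phosphoethanolamine, had 2 reads in each HF rat and 4 to 23 reads in treated rats. Sham rats had 1 to 44 reads of it, which spans both groups. The brain and testis transcription factor Rfx4 had 1 to 5 reads in HF rats and 15 to 68 in treated rats, with 1 to 16 in Sham rats. Mtus2, a microtubule-associated protein, was the most abundant of the remaining higher genes at 36.0 to 43.3 CPM in HF rats and 46.0 to 67.5 CPM in treated rats. Nradd, Tm2d1 and Taf9b, the last a relative of a subunit of the general transcription factor TFIID, had log2 fold changes of 1.52 (SE 0.34), 0.34 (SE 0.08) and 0.41 (SE 0.10).

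Among the lower genes, 3 belong to the handling of chromosomes. Mcm10, which is needed to start DNA replication, was at 10.8, 10.4 and 10.1 CPM in HF rats. It was at 3.99, 4.78 and 5.83 CPM in HFE rats and at 4.52, 7.12 and 8.74 CPM in BAIBA rats. The HF rats lay close together and every treated rat was below them. Ncapd3, a subunit of condensin II, was at 13.2, 12.5 and 10.3 CPM in HF rats and at 6.25 to 9.28 CPM in treated rats. Anp32e, a chaperone that removes the histone variant H2A.Z, was at 168, 195 and 199 CPM in HF rats and at 135 to 163 CPM in treated rats. Gene regulators were the homeobox factor Cux1 and the coregulator Hcfc1. Cux1 was at 24.6, 18.8 and 20.8 CPM in HF rats and at 14.3 to 16.4 CPM in treated rats, with a log2 fold change of -0.49 (SE 0.10). Hcfc1 was at a log2 fold change of -0.65 (SE 0.16).

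Ppp1r16b, a subunit of protein phosphatase 1 known from endothelial cells, was at 23.0, 19.7 and 19.5 CPM in HF rats. It was at 12.8, 13.6 and 15.1 CPM in HFE rats and at 7.86, 13.0 and 12.6 CPM in BAIBA rats, with Sham rats at 11.7 to 12.7 CPM. Treated rats were thus near Sham and below HF. Wdfy4, which dendritic cells need to present antigens taken up from other cells, was at 16.7, 16.3 and 15.3 CPM in HF rats. HFE rats were at 8.72, 9.62 and 10.3 CPM and BAIBA rats at 14.3, 11.5 and 15.0 CPM, so the BAIBA rats lay nearer to the HF rats than the HFE rats did. The kinesin Kif17 was at 1.84 to 2.29 CPM in HF rats and 0.502 to 1.71 CPM in treated rats. Pof1b, an actin-binding protein, had 22 to 72 reads in HF rats and 2 to 13 in treated rats. Raph1, which links Ras signals to the actin cytoskeleton, and Tmem71 had log2 fold changes of -0.37 (SE 0.09) and -0.51 (SE 0.13).

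**Figure D2:**
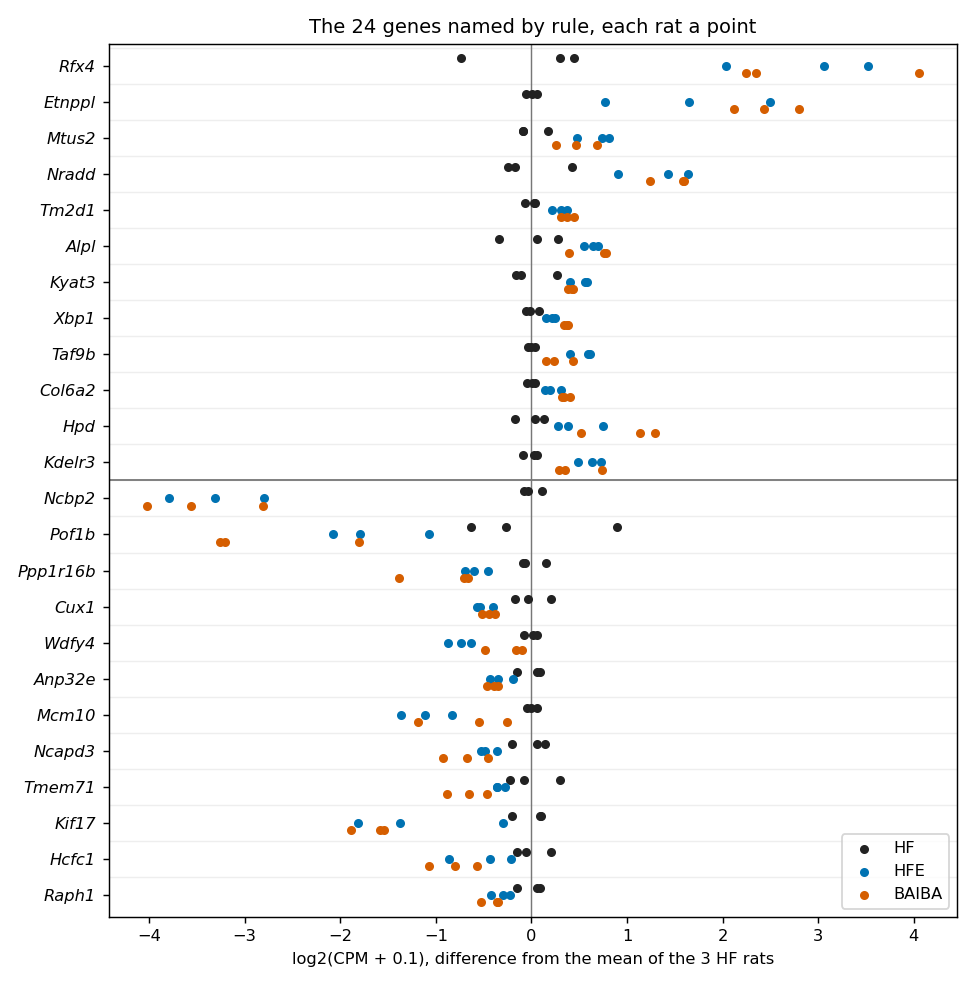
Difference of each rat's log2(CPM + 0.1) from the mean of the 3 HF rats (horizontal axis) for the genes described (vertical axis), with the 12 higher genes above the line and the 12 lower genes below it. Each point is a rat, and by the way the genes were chosen no treated rat overlaps the HF rats, with Rfx4 and Etnppl farthest to the right and Ncbp2 and Pof1b farthest to the left.

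Gene lists were described by how many of their tested members moved. Of the 24 pathway lists, the one with the most members higher was that of ER stress, in which 8 of 19 members (42.1%) had an unadjusted p under 0.05 and were higher, and 0 were lower, beside 3.04% and 3.34% of all tested genes. None passed adjustment (lowest adjusted p = 0.765 in edgeR's quasi-likelihood test). Its median log2 fold change was 0.17, beside -0.01 for all tested genes, and it was 0.15 for exercise and 0.12 for BAIBA, which share the HF rats. The 8 were Hspa5, Ddit3, Atf4, Xbp1, Dnajb9, Dnajb11, Manf and Trib3, given here in full after their values were seen. Without HF rat 1 the count was 4 of 19 (21.1%, beside 3.98% of all genes), and without HF rat 2 it was 3 of 19 (15.8%, beside 2.65%).

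Hspa5, which encodes BiP, the main ATP-driven chaperone of the ER, was at 262, 287 and 315 CPM in HF rats. In HFE rats it was at 394, 463 and 388 CPM, all above HF, and BAIBA rats were at 299, 333 and 304 CPM, within or just above the HF range. Its log2 fold change was 0.53 for exercise (SE 0.11) and 0.12 for BAIBA (SE 0.11). Hsp90b1, which encodes the related ER chaperone GRP94, had a log2 fold change of 0.08 (SE 0.09) for both interventions together. Manf, a small secreted ER protein, was at 24.4, 20.5 and 27.3 CPM in HF rats. It was at 32.0, 35.3 and 28.8 CPM in HFE rats and at 30.1, 30.1 and 28.6 CPM in BAIBA rats. With Xbp1 and Trib3, Manf made up the 3 of 19 members (15.8%) whose treated rats were all above the HF rats, beside 1.72% of all tested genes. Trib3, a pseudokinase induced under ER and nutrient stress, was at 0.688, 0.491 and 0.953 CPM in HF rats and at 1.03 to 1.66 CPM in treated rats. The sensors themselves were not among the higher members. The log2 fold changes for both interventions together were -0.23 (SE 0.12) for Atf6, 0.04 (SE 0.09) for Ern1 and -0.18 (SE 0.15) for Eif2ak3.

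**Figure D3:**
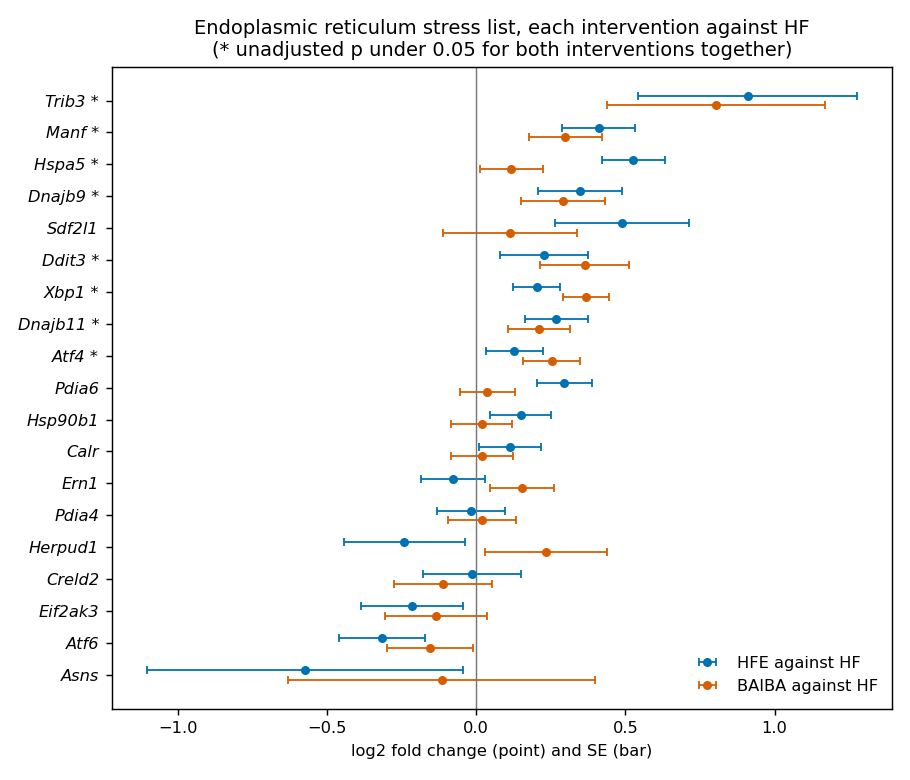
Log2 fold change against HF (horizontal axis) of the 19 tested members of the ER stress list (vertical axis) for exercise and for BAIBA, with bars of 1 SE. Stars mark the 8 members with an unadjusted p under 0.05 for both interventions together, and Trib3 lies farthest to the right for either intervention while Asns and Atf6 lie to the left of 0 for either. Hspa5 is second for exercise, at 0.53, and is at 0.12 for BAIBA.

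Because several members lay in the same direction, their promoters were searched for the ER stress response element, a sequence bound by Atf6 and NF-Y that was searched as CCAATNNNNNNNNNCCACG on both strands. Of 33469 rat promoters of 300 bases in the RefSeq table (GRCr8, 250 bases before each start and 50 after), 22 (0.0657%) held it. Of the 19 members, 15 had a promoter in the table, and 5 of them held the element: Hspa5, Xbp1, Hsp90b1, Calr and Creld2. These are shown 5′ to 3′ on the gene's strand with up to 20 flanking bases, with the element in capitals, because they include both members higher after treatment and members near 0.
Hspa5, chr3:38452953-38453011, plus strand: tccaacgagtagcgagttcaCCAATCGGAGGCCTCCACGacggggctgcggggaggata
Xbp1, chr14:84604538-84604596, plus strand: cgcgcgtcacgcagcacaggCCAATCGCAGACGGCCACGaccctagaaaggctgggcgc
Hsp90b1, chr7:23012431-23012489, minus strand, farther from the start: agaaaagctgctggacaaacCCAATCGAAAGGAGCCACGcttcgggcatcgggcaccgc
Hsp90b1, chr7:23012327-23012385, minus strand, nearer to the start: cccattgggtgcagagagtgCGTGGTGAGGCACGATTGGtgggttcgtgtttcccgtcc
Calr, chr19:40213117-40213173, plus strand: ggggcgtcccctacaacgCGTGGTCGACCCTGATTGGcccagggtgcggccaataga
Creld2, chr7:121789219-121789277, plus strand: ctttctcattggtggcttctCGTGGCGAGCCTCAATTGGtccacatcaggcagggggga
In Calr, Creld2 and the nearer Hsp90b1 element the match is on the other strand. The first base of the Hspa5 element lies 43 bases before the start, and that of Xbp1 lies 65 bases before it. Of the 5 genes with the element, Hspa5 and Xbp1 were among the 8 higher members, while Hsp90b1, Calr and Creld2 had log2 fold changes of 0.08, 0.07 and -0.06. Atf6, whose product binds the element, was given above. Promoter sequence does not depend on the values of these rats, so the share of the list with the element is no result of treatment.

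Among the pathway lists the one that lay lowest was that of the cell cycle, and its direction rested on HF rat 1. Of 22 tested members, 3 (13.6%) had an unadjusted p under 0.05 and were lower, beside 3.34% of all tested genes, and 0 were higher. None had an adjusted p under 0.05 in edgeR's quasi-likelihood test. The median log2 fold change was -0.73, with -0.57 for exercise and -0.85 for BAIBA. HF rat 1 had the highest level of the 9 rats in 21 of the 22 genes, and the summed level was 347.2 CPM in HF rat 1, 153.3 and 137.5 CPM in the other HF rats, and 118.0 to 200.3 CPM in the treated rats. Mki67, a marker of dividing cells, was at 41.6, 5.21 and 4.93 CPM in HF rats. HFE rats were at 7.99, 11.6 and 7.72 CPM and BAIBA rats at 5.35, 5.77 and 3.50 CPM, so 2 of the HF rats lay among the treated rats. Top2a, the topoisomerase of dividing cells, was at 52.4, 3.07 and 4.18 CPM in HF rats and at 2.71 to 7.39 CPM in treated rats. Birc5, which encodes survivin, was at 2.58, 0.797 and 0.583 CPM in HF rats and at 0.192 to 1.13 CPM in treated rats.

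Without HF rat 1, 0 of the 22 cell cycle genes had an unadjusted p under 0.05, and the median log2 fold change was 0.23, with 0.39 for exercise and -0.06 for BAIBA. Mki67 and Top2a then lay above HF, at 0.39 and 0.38. Without HF rat 2, 16 of the 22 genes were lower at an unadjusted p under 0.05, and without HF rat 3, 11 were. The T cell markers shared the peak in HF rat 1 with these genes. Among the treated rats the highest T cell sum was in BAIBA rat 1, at 11.3 CPM, and the highest cell cycle sum was in HFE rat 3, at 200.3 CPM. Cd3e, a chain of the T cell receptor complex, was at 35.9 CPM in HF rat 1 and at 0.982 and 1.11 CPM in the other HF rats, with 1.38 to 3.46 CPM in treated rats, and Cd3g and Cd2 were likewise highest in HF rat 1. Their part in the cell cycle result was not tested.

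**Figure D4:**
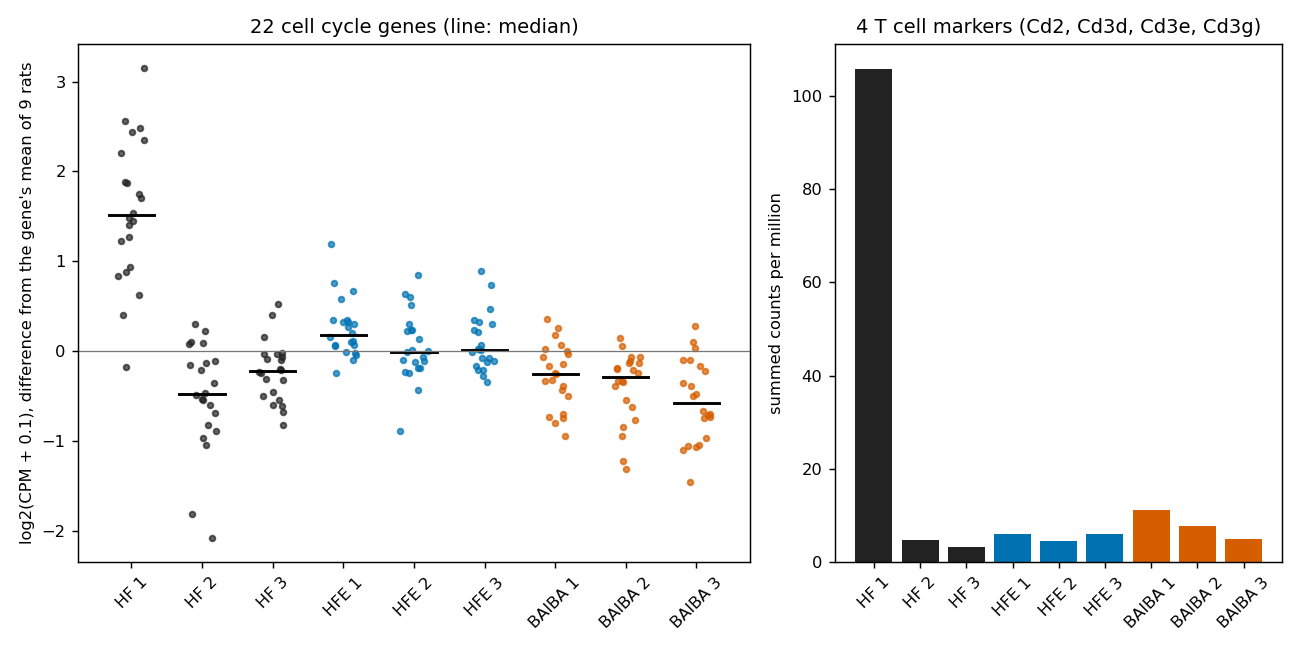
Left, difference of log2(CPM + 0.1) from each gene's mean of the 9 rats (vertical axis) for 22 cell cycle genes in each rat (horizontal axis), with a line at the median. Right, summed CPM of 4 T cell markers in the same rats as bars from 0, where HF rat 1 stands at 105.9 and the other rats at 11.3 or less.

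Fuel genes also separated HF rat 1 from the other HF rats, in the other sense. Angptl4, an inhibitor of lipoprotein lipase that fatty acids induce, was at 1.15, 10.4 and 17.8 CPM in HF rats. In HFE rats it was at 1.13, 0.415 and 0.760 CPM and in BAIBA rats at 3.29, 3.53 and 2.47 CPM, so HF rat 1 lay among the treated rats. Its log2 fold change was -2.65 (SE 0.64, adjusted p = 0.765 in edgeR's quasi-likelihood test), and without HF rat 1 it was -3.18 with an adjusted p of 0.0236, while without HF rat 3 it was -1.89 with an adjusted p of 0.924. Pdk4, the kinase that closes pyruvate dehydrogenase and so spares glucose, was at 69.1, 343 and 709 CPM in HF rats. It was at 47.5, 38.1 and 98.4 CPM in HFE rats and at 108, 228 and 209 CPM in BAIBA rats. Txnip, which restrains glucose uptake and thioredoxin, was at 432.3, 994.2 and 1115 CPM in HF rats and at 286.3 to 568.4 CPM in treated rats. For both genes HF rats 2 and 3 were above every treated rat and HF rat 1 was not. The log2 fold change of Pdk4 was -1.82 (SE 0.63), at -2.31 without HF rat 1 and -0.97 without HF rat 3, and that of Txnip was -0.99 (SE 0.29), at -1.30 without HF rat 1 and -0.74 without HF rat 3. Txn2, the mitochondrial thioredoxin, was at 75.3, 82.6 and 61.5 CPM in HF rats and at 86.2 to 121 CPM in treated rats, without overlap.

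In the fatty acid oxidation list as a whole, 3 of 28 tested members (10.7%) had an unadjusted p under 0.05 and were lower, beside 3.34% of all tested genes, 0 were higher, and the median log2 fold change was 0.02. Angptl4 and Pdk4, described above, were among the 3 lower members. Cpt1b and Cpt1a, the muscle and liver forms of an enzyme that readies fatty acids for entry into mitochondria, had log2 fold changes of -0.09 (SE 0.12) and -0.24 (SE 0.15). Of 21 glycolysis and glucose uptake genes, 2 (9.52%) were higher at that p, beside 3.04% of all tested genes, and 0 were lower. They were Hk2, the hexokinase of muscle, at a log2 fold change of 0.43 (SE 0.13), and Pfkfb2, which raises the activator of phosphofructokinase, at 0.62 (SE 0.24). Hk2 was at 119.9, 81.0 and 86.6 CPM in HF rats and at 113 to 151 CPM in treated rats, so HF rat 1 again lay among the treated rats, and without it the log2 fold change was 0.62.

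Besides the ER stress and cell cycle lists there were 22 lists, fatty acid oxidation and glycolysis among them, each with 6 to 28 tested genes. Of their 393 members, 14 (3.56%) were higher at an unadjusted p under 0.05 and 13 (3.31%) were lower. These shares were close to the 3.04% and 3.34% of all tested genes. The medians of the 22 lists lay between -0.14 and 0.24. In 8 members (2.04%) all treated rats were above all HF rats and in 1 (0.254%) all were below, beside 1.72% and 1.32% of all tested genes, so the members described next are examples and not a property of their lists. Apln, the vascular and inotropic peptide apelin, was at 12.7, 12.3 and 8.26 CPM in HF rats and at 13.0 to 23.2 CPM in treated rats. Igf1r, the receptor of insulin-like growth factor 1, was at 6.88, 8.47 and 9.64 CPM in HF rats and at 3.74 to 6.78 CPM in treated rats. Camk2d, the main calcium/calmodulin kinase of the heart, was at 167, 155 and 133 CPM in HF rats and at 173 to 188 CPM in treated rats, and Ndufb5, a subunit of respiratory complex I, was at 209.8 to 221 CPM in HF rats and 226 to 262 CPM in treated rats. Bckdhb, a subunit of the enzyme that commits branched-chain keto acids, valine's among them, to oxidation, was at 106, 103 and 109 CPM in HF rats and at 111 to 138 CPM in treated rats. These differences were small, with log2 fold changes of 0.64 (SE 0.18) for Apln, -0.71 (SE 0.20) for Igf1r, 0.26 (SE 0.08) for Camk2d, 0.20 (SE 0.07) for Ndufb5 and 0.26 (SE 0.08) for Bckdhb.

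Other members of these lists overlapped between the groups. Vegfa, the main vascular growth factor, was at 812.9, 838.0 and 773.1 CPM in HF rats. HFE rats were at 1088, 1106 and 1192 CPM and BAIBA rats at 812.9, 999.0 and 855.2 CPM, so only the HFE rats were all above HF. Arrb1, an arrestin that uncouples adrenergic receptors, was at 7.74, 10.4 and 13.6 CPM in HF rats and at 5.66 to 7.79 CPM in treated rats. Fndc5, the precursor of the myokine irisin, was at 152, 125 and 120.0 CPM in HF rats and at 134 to 174 CPM in treated rats. Among matrix genes, Col1a1 had a log2 fold change of 0.38 (SE 0.26) and Col1a2 of -0.04 (SE 0.48), and 0 of 27 collagen and matrix genes had an unadjusted p under 0.05. In 25 immediate early genes the median was 1.06 for exercise and -0.22 for BAIBA, and 0 had an unadjusted p under 0.05 for both together. The exercise value rested on HFE rat 3, without which the median for exercise was -0.18. Fos, the best known of these genes, was at 6.39, 4.57 and 51.9 CPM in HFE rats and at 15.8, 2.33 and 4.50 CPM in HF rats.

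The interventions themselves differed in 3 genes by edgeR's quasi-likelihood test of BAIBA against HFE, while 1455 genes (9.44% of those tested) had an unadjusted p under 0.05. The 3 calls became 0 when any of the HFE rats was left out, 1 when any of the BAIBA rats was, 8 without HF rat 1, 5 without HF rat 2, 5 with a replicate block, and 134 by DESeq2. Myh7, which encodes the slow β-myosin heavy chain, was at 11782, 8573 and 17479 CPM in HF rats. HFE rats were at 13923, 16587 and 12841 CPM, within the HF range, and BAIBA rats were at 3093, 3597 and 3553 CPM, below every HF rat and below Sham rats, which were at 7445 to 7980 CPM. The mean of the interventions was 0.84 lower than HF on the log2 scale (SE 0.19), but this joined a log2 fold change of 0.20 for exercise (SE 0.22) with one of -1.88 for BAIBA (SE 0.23), and BAIBA against HFE was -2.08 (SE 0.23, adjusted p = 0.0292 in edgeR's quasi-likelihood test). Bcl6b, a transcriptional repressor of endothelial cells, was at 33.3, 52.9 and 47.6 CPM in HF rats, 84.2, 89.6 and 93.6 CPM in HFE rats, and 29.9, 34.6 and 30.5 CPM in BAIBA rats. Exercise and BAIBA thus lay on opposite sides of HF on average, and BAIBA against HFE was -1.49 (SE 0.16, adjusted p = 0.0180 in edgeR's quasi-likelihood test). The third was a transcript without an Ensembl identifier that the authors assembled, at means of 11.6 CPM in HF, 21.8 CPM in HFE and 1.93 CPM in BAIBA rats. Myh6, the fast α-myosin heavy chain, was between 9127 and 18337 CPM in the 9 rats, with a log2 fold change of 0.15 (SE 0.17) for both interventions together.

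Mir208b (ENSRNOG00000041381), the miRNA gene that the study is about, lies within the span of Myh7 in RefSeq. Its mature miRNA and that of Mir208a, which was not analysed here, are shown as RefSeq (GRCr8) lists them because they share a seed, the bases at positions 2 to 8, in capitals.
rno-miR-208b-3p: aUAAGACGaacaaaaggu
rno-miR-208a-3p: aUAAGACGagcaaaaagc
Outside the seed the sequences differ at 3 positions. Mir208b was at 1.72, 2.21 and 1.22 CPM in HF rats. It was at 2.06, 2.42 and 2.98 CPM in HFE rats and at 6.80, 5.77 and 4.76 CPM in BAIBA rats, so the BAIBA rats were above the HF and HFE rats, and the HFE rats overlapped the HF rats. The libraries were made from poly(A) RNA, so these 23 to 122 reads per rat count longer transcripts over the gene and not the mature miRNA. The log2 fold change for both interventions together was 1.15 (SE 0.25, adjusted p = 0.765 in edgeR's quasi-likelihood test). It was 0.54 for exercise (SE 0.29) and 1.75 for BAIBA (SE 0.28).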

How the data were processed

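The deposited tables held, per gene, read counts and FPKM for 12 rats. Per the labels and the methods, the authors aligned reads with HISAT2, assembled transcripts with StringTie, and made the deposited counts with featureCounts of Subread. The FPKM values, which the authors scaled by gene length and reads, were used in an alternative only. The processing notes name the mouse build mm9 although the identifiers are rat, so no coordinates of counted genes are given. Whether counting used strand is not given in the sources used here.

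Counts of the 9 infarcted rats were fitted in edgeR 4.0.16 (R 4.3.3) with TMM normalization, the filterByExpr filter and robust quasi-likelihood fits of 3 group means, after a check on simulated data. The contrast of both interventions was the mean of HFE and BAIBA minus HF. Calls used the study's thresholds, an adjusted p below 0.05 by Benjamini-Hochberg with a change of more than 1 on the log2 scale in either direction. The study applied its thresholds with DESeq2, which was run here as an alternative. SE is the log2 fold change divided by the root of F. CPM used TMM factors over all 12 rats, and log values added 0.1. The table held 34700 genes, 2077 of them assembled by the authors. Library totals were 14812541 to 19732588 reads. Rats are replicates by their labels, so p-values measure the spread between these libraries, and no library repeated another (chi-square per gene 11.9 to 34.1 within groups).

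Named genes were every gene called for both interventions together, every gene called for each alone (0 genes), the 12 higher and 12 lower genes with the lowest p among Ensembl genes with a symbol not starting with LOC, RGD, AABR or AC, the same sign for both interventions and no overlap between treated and HF rats, the first 2 tested and the 2 lowest-p genes of each list, Mir208b, Myh7 and Myh6, and members of a cell type marker list where the whole list moved with a result. LOC100911994, Vps50, Ncbp1, Ncbp3, Bcl6b, Hba-a3, the T cell genes and, in the ER stress list, genes beyond Hspa5, Hsp90b1 and Xbp1 were chosen after their values were seen. Members, lists and rules were chosen with earlier results of these data known. Of 467 genes in 24 pathway lists, 457 were matched by symbol and 434 were tested.

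Alternatives were DESeq2, RLE, library size only, other count filters, all 12 rats, a replicate block, each rat left out, no fold limit, unadjusted p, limma on log2(FPKM + 1) and log2(FPKM + 0.1), Ensembl genes only, and the 6 treated rats as 1 group. Deviations from the group means of same-numbered rats correlated at r from -0.08 to 0.23 over 9 pairs, above 0 in 8 and over 0.1 in 4. All 3 pairs of HFE and BAIBA rats were over 0.1 (0.12 to 0.23), so the block is given beside that comparison. Of the pairs with HF rats, HF rat 1 with BAIBA rat 1 was also over 0.1 (0.13), and the others lay between -0.08 and 0.05. The block is given for both interventions against HF as well, where the Ncbp2 call was lost with it. No source says what a number shares.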

Additional observations from a re-analysis of the deposited data

Results flagged for a closer look

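In 3 genes BAIBA and exercise differed from each other by edgeR's quasi-likelihood test, so their mean against HF joins unequal effects. The BAIBA minus HFE log2 fold change was -2.08 for Myh7, -1.49 for Bcl6b and -3.50 for the transcript without an Ensembl identifier.

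Among 52 described genes, 3 had a single treated rat farther from the other 5 than Dixon's critical value for 6 values allows, where chance gives about 1 in 20. Ppp1r16b was lowest in BAIBA rat 1, at 7.86 CPM. Kif17 was highest in HFE rat 3, at 1.71 CPM. Fndc5 was lowest in HFE rat 2, at 133.7 CPM.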

How the results depend on the processing

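For both interventions against HF, higher and lower calls (0 and 1) became 2 and 3 by limma on log2(FPKM + 0.1), 54 and 133 by unadjusted p, and 1 and 1 with only a minimum of 1 count or with the treated rats as 1 group. Lower calls were 0 by DESeq2, with all 12 rats and with a mean of at least 50 counts. The filter on the mean count left Ncbp2 out of the test. DESeq2 gave no adjusted p to 14350 genes, Ncbp2 among them, which its own filter on low counts set aside. Genes moved by each intervention (0 and 0) became 1 and 1 by DESeq2, Ncbp2 and LOC100911994, 109 and 93 by unadjusted p, and 1 lower gene by limma on log2(FPKM + 1) or with a minimum of 1 count. Calls for HFE against HF (0) were 15 by DESeq2, 221 by unadjusted p, 1 and 2 by limma with 0.1 and 1 added, and 2 with a minimum of 1 count. Calls for BAIBA against HF (0) were 27 by DESeq2, 282 by unadjusted p, 1 by either limma fit and with all 12 rats, and 3 by library size only or with a minimum of 1 count. Calls for BAIBA against HFE (3) were 134 by DESeq2 and 419 by unadjusted p.

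With each rat left out, both interventions against HF gave 0 to 1 higher and 0 to 3 lower genes. Lower calls were 2 without HF rat 1 (Ncbp2 and Angptl4), 3 without HF rat 2, 2 without HFE rat 2 and 0 without HF rat 3 or BAIBA rat 1. A higher call appeared without HF rat 1 (Hba-a3), HF rat 3 and BAIBA rat 2. Genes moved by each were 0 to 0 in both directions, HFE against HF 0 to 2 (2 without HF rat 1, 1 without HF rat 3), BAIBA against HF 0 to 4 (4 without HF rat 1, 2 without HF rat 3, 1 without HF rat 2, HFE rat 2 or BAIBA rat 3), and BAIBA against HFE 0 to 8, with 8 without HF rat 1, 5 without HF rat 2, 1 without each BAIBA rat and 0 without each HFE rat. Mki67 ranged from -1.81 to 0.39 and Top2a from -2.58 to 0.38, and both turned direction without HF rat 1. With a replicate block 0 genes were lower in both interventions against HF (Ncbp2 adjusted p = 0.0621), 1 was called for BAIBA against HF and 5 for BAIBA against HFE. The cause of these changes was not tested. With 3 HF rats serving both interventions, depth of a few reads limits Ncbp2, LOC100911994, Rfx4 and Etnppl.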
